A study of Mus musculus with 4 samples.

Results

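The genes described are 10 of the 27998 genes in the count matrices: Peg3, Usp29, Zim1, Snrpn, Ndn, Mest, Nnat, Blcap, Peg10 and Sgce. They were chosen by symbol as paternally expressed genes of 5 imprinted loci with close neighbours, and the choice was made with earlier results of these data known. All 10 had at least 1 unique molecular identifier (UMI, a tag that counts 1 captured RNA molecule) in each library, and all 10 had at least 50 UMIs over the libraries of every comparison. The name fits 8 of the 10 as textbook knowledge has it: Zim1 is expressed from the maternal allele in mouse, and Blcap is the host of Nnat. Parental alleles were not separated in these counts, so every value is the sum over both alleles.

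Droplet single-cell RNA sequencing was done on mouse inner ear organoids, stem cell cultures grown in suspension that give rise to inner ear epithelium and to other tissues such as muscle, fibroblasts and neural cells. Wild-type organoids (WT) came from R1/E, an embryonic stem cell line with the derived strain 129X1x129S1. Knockout organoids (KO) came from R1/E-Tmprss3KO-GFPKI, which by its name lacks Tmprss3, a transmembrane serine protease gene linked to deafness, and carries a GFP knock-in. Each line was sampled at day 25 and at day 35 with 1 library per group. Whether the KO line is 1 clone, and how many organoids were pooled, is not given in the sources used here. A difference between lines therefore cannot be told apart from a difference between cultures, clones or library preparations, and no test was made. The 95% intervals below come from UMI counts and cover counting error only.

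Imprinted genes are expressed mainly from 1 parental allele. At loci such as Peg3, Mest, Snrpn, Nnat and Peg10, a control region near the promoter carries DNA methylation on the maternal allele from the egg onward, and the unmethylated paternal allele is transcribed. Many imprinted genes act in embryonic growth, placenta, muscle and brain.

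Of the barcodes, 9768, 11190, 8166 and 6729 were kept in WT day 25, KO day 25, WT day 35 and KO day 35. They held a median of 6166.5, 6371, 3089 and 4420 UMIs, so that the day 35 libraries were shallower. Levels are given as CPM, counts scaled to the same total of UMIs in each library or cell group. Tmprss3 itself had 5 to 18 UMIs per library, too few to check the genotype, and whether the deletion covers the part of the transcript that is counted is not known. Pairs of libraries shared 76 to 142 cell barcode sequences. Cells were gated by lists of 8 markers, and a barcode entered a gate with at least 3 markers of it and more than of any other, which placed 72.4%, 75.0%, 54.9% and 58.2% of the kept barcodes. In each of the 14 gates with at least 20 barcodes over all libraries, the 10 genes of highest fold over other cells included at least 3 of its own markers. The other 3 of the 17 gates were not examined. Barcodes were chosen by these same markers, so this is a description and does not check cell identity. For the inner ear fibrocyte gate the 10 genes also included 2 markers of another gate.

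The cell makeup differed between the libraries. The skeletal myotube gate held 29.5% of the UMIs of WT day 35 and 6.25% of those of KO day 35. A pluripotent gate, led by Dppa5a and Pou5f1, held 315 barcodes and 13.3% of the UMIs in KO day 35, against 0 barcodes in WT day 35 and 11 and 2 barcodes in WT and KO day 25. The neuron gate held 545, 276, 3 and 25 barcodes in WT day 25, KO day 25, WT day 35 and KO day 35. The astrocyte gate held 392, 296, 33 and 281. Of the 2064 skeletal myotube barcodes of WT day 35, 683 held just 3 markers, and 652 others held 2 and stayed outside that gate. In whole libraries a change in the number of cells of a type cannot be told apart from a change in RNA per cell, so each gene is also given within gates.

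The promoter windows of 6 genes are printed, for the genes of the Peg3, Mest, Snrpn and Nnat loci whose levels the results turn on. Each window is the 250 bases before a RefSeq transcript start in GRCm38.p6, written 5′ to 3′ on the strand of the gene. RefSeq windows were found for 8 of the 10 genes, and Peg10 and Sgce are named only. In the first 3 windows capitals mark CpG dinucleotides, the bases that carry DNA methylation at control regions. The windows are chr7:6730420-6730669 on the minus strand for Peg3, chr7:6696433-6696682 on the minus strand for Zim1 and chr6:30737800-30738049 on the plus strand for Mest, where 3 start windows are annotated and 1 is shown.
Peg3: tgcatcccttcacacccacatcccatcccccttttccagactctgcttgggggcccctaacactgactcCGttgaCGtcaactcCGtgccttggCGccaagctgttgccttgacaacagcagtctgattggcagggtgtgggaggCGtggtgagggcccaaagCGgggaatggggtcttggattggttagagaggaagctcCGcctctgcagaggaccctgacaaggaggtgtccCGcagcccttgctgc
Zim1: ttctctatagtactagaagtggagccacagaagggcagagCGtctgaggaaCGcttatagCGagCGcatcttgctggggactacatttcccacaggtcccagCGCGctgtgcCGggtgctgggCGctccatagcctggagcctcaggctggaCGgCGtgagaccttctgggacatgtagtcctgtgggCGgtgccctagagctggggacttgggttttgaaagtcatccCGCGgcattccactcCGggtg
Mest: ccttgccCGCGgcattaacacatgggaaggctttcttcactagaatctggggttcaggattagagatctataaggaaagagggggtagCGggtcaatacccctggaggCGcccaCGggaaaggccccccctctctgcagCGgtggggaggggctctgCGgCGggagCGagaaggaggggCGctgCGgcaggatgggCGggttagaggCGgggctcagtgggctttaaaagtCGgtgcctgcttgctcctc
The windows of Peg3, Zim1 and Mest hold 8, 14 and 14 CpG, and those of Snrpn, Ndn, Nnat, Usp29 and Blcap hold 4, 5, 12, 14 and 12. Where a gene had several start windows, 3 for Mest and 4 for Snrpn, the window with the most CpG was taken. The median over 32817 promoter windows of the same length, taken without such a choice, is 6. Of the 8 windows 6 lie above it and 2 below. Snurf, a gene within Snrpn on the same strand, is annotated at chr7:59995449-60005049. The Snrpn window lies elsewhere, so its CpG count does not describe the bases before Snurf. The Usp29 window lies on the opposite strand and shares 163 bases with the Peg3 window.

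The other 3 windows are Snrpn at chr7:60047979-60048228 on the minus strand, Ndn at chr7:62348027-62348276 on the plus strand and Nnat at chr2:157559828-157560077 on the plus strand. Capitals mark the 7 letters GCATGCG or their reverse complement CGCATGC, searched on both strands, whose matches can overlap each other. The letters were chosen after these windows were read.
Snrpn: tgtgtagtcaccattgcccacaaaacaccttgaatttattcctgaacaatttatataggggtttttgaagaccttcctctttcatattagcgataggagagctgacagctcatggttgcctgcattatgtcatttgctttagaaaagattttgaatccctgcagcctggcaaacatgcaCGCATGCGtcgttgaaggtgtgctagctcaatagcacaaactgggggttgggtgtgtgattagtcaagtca
Ndn: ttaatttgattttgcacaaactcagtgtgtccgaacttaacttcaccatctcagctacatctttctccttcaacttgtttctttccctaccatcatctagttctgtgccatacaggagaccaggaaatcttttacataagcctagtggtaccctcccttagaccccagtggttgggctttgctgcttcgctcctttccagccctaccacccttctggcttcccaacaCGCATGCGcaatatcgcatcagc
Nnat: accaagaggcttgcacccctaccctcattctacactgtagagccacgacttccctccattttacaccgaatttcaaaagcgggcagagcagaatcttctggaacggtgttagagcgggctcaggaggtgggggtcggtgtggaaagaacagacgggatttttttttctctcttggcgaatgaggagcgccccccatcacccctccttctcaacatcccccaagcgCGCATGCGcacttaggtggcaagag
The letters occur in 3 of the 8 genes with a window and in 988 of the 32817 windows, or 3.01%. Snrpn has 4 annotated start windows, of which 3 hold them. This is a description of the letters, and no binding was measured.

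In whole libraries 7 of the 10 genes were higher in KO than in WT on each day, against 44.4% of all genes at day 25 and 73.9% at day 35, so that the day 35 count is near the share over all genes. Zim1 was far lower in KO. At day 25 1 gene was at least 2-fold higher in KO, Mest, against 1.89% of all 15573 genes measured, and 1 was at least 2-fold lower, Zim1, against 3.68%. At day 35 3 genes were at least 2-fold higher, Snrpn, Nnat and Mest, against 7.82% of 14276 genes, and again 1 was lower, Zim1, against 2.41%. The genes were chosen for these ratios, so the counts are a description. The median log2 ratio of all genes was -0.03 at day 25 and 0.23 at day 35, and the median of the 10 genes was 0.29 and 0.53. Day 35 ratios are read against that shift.

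**Figure D1:**
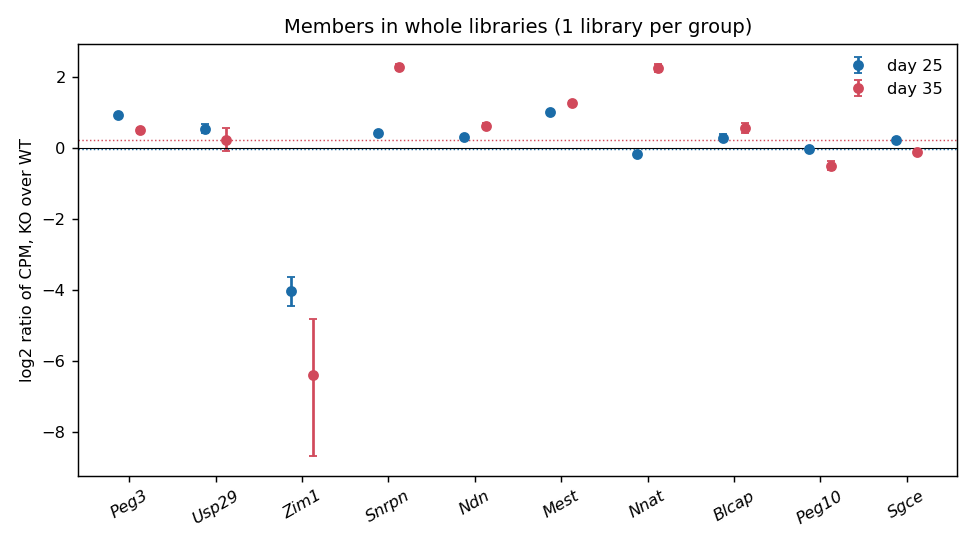
Log2 ratio of CPM, KO over WT, for each of the 10 genes in whole libraries at day 25 (blue) and day 35 (red). Points are ratios of 1 library to 1 library, bars are 95% counting intervals, and dotted lines mark the median of all genes (-0.03 and 0.23). Zim1 lies at -4.04 and -6.40, while Snrpn and Nnat lie at 2.28 and 2.26 at day 35.

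The Peg3 locus on chromosome 7 holds Peg3, a zinc finger gene known for its part in growth and maternal behaviour, Usp29, a ubiquitin peptidase gene read in the opposite direction from the same promoter region, and Zim1, a zinc finger gene 7442 bases beyond Peg3. In the GRCm38 gene annotation Peg3 and Usp29 start 147 bases apart. Peg3 (ENSMUSG00000002265, GRCm38 chr7:6703892-6730431) had 174 CPM in WT day 25, 329 in KO day 25, 87.2 in WT day 35 and 123 in KO day 35. KO was above WT on both days, and day 35 was below day 25 in both lines. On the log2 scale KO over WT stood at 0.92 on day 25 (0.89 to 0.95) and at 0.50 on day 35 (0.43 to 0.57), or 0.27 above the median of all genes. Usp29 had 11.8, 17.2, 4.47 and 5.25 CPM in the same order, with log2 ratios of 0.54 (0.42 to 0.67) and 0.23 (-0.09 to 0.56). The day 35 value of Usp29 equals the shift of all genes within 0.01.

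Zim1 (ENSMUSG00000002266, chr7:6671269-6696450) had 739 UMIs in WT day 25, 52 in KO day 25, 204 in WT day 35 and 3 in KO day 35. These are 10.1, 0.616, 6.60 and 0.0783 CPM. Both KO libraries lay far below both WT libraries. The log2 ratios of KO over WT were -4.04 (-4.47 to -3.63) for day 25 and -6.40 (-8.69 to -4.83) for day 35.

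Zim1 and Peg3 lie next to each other, and their counts moved apart in KO. For every 100 UMIs of Peg3 there were 5.81 of Zim1 in WT day 25 (5.39 to 6.26), 0.187 in KO day 25 (0.140 to 0.246), 7.58 in WT day 35 (6.54 to 8.74) and 0.0636 in KO day 35 (0.0131 to 0.186). The WT values of both days were close to each other beside the gap to KO. Usp29 for every 100 UMIs of Peg3 was 6.78, 5.24, 5.13 and 4.26, a far narrower range.

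Within gates Peg3 was higher in KO in each of the 6 gates with at least 20 barcodes in every library: other otic epithelium, keratinocyte, astrocyte, skeletal myotube, myogenic progenitor and fibroblast. Of all genes measured in those 6 gates, 6.88% were higher in KO in all of them at day 25 and 12.7% at day 35. The median log2 ratio of Peg3 over the 6 gates was 0.76 (range 0.46 to 0.94) at day 25 and 1.15 (0.25 to 1.38) at day 35. The interval included 0 in the keratinocyte gate on both days and in the myogenic progenitor gate at day 35. With at most 1 marker of any other gate allowed, the day 35 ratio of the other otic epithelium gate was -0.29, so that the direction there turned. In the fibroblast gate Peg3 had 241, 430, 117 and 244 CPM, and in the skeletal myotube gate 191, 330, 111 and 260. At day 25 the order of its levels was the same in both lines at the top: myogenic progenitor (318 in WT, 529 in KO), fibroblast, skeletal myotube and neuron (101 and 222). Astrocyte had 98.3 and 189 CPM, with intervals that overlapped those of neuron in both lines. No ratio between gates was computed. Keratinocyte was lowest, at 35.1 and 48.2 CPM.

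Over all gates with at least 20 barcodes in both libraries, 8 of 80 pairs of gene and gate were at least 2-fold apart at day 25, against 5.39% of the pairs over all genes. At day 35 the count was 24 of 50, against 11.2%. Mest gave 6 of these 24 pairs, Snrpn 5, Peg3 4 and Nnat 4. The genes were chosen for their ratios, and the pairs of 1 gene come from the same libraries, so these counts are a description.

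Usp29 had enough UMIs for a ratio in 4 of the 6 gates at day 25 and in 2 at day 35, and was higher in KO in each of these. The fibroblast ratio at day 35 was 0.28 (-0.46 to 1.06), and -0.17 with at most 1 marker of any other gate. Its day 25 level was highest in the neuron gate, at 46.3 CPM (39.3 to 54.3) in WT and 58.6 (48.3 to 70.6) in KO. Next came the myogenic progenitor gate, at 18.9 and 27.9.

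Zim1 was lower in KO in every gate where it could be measured. In the fibroblast gate it had 267 UMIs in WT day 25, 7 in KO day 25, 67 in WT day 35 and 1 in KO day 35. The log2 ratio there was -6.02 (-7.35 to -4.96) and -6.56 (-11.89 to -4.04). In the skeletal myotube gate the UMIs were 254, 27, 101 and 1, and the log2 ratio was -3.19 (-3.82 to -2.62) and -4.73 (-10.05 to -2.22). With at most 1 marker of any other gate allowed, those values were -5.02 and -1.86. The myogenic progenitor gate had 53 and 9 UMIs at day 25. Thinned to 2000 UMIs per barcode, 1.99% of the barcodes of WT day 25 had a Zim1 UMI, 0.0715% of KO day 25, 1.13% of WT day 35 after 707 shallower barcodes were left out, and 0.0149% of KO day 35. Unthinned the shares were 6.54%, 0.393%, 2.23% and 0.0446%. No cell type of these organoids is known to lack Zim1, so a background share from free RNA was not set.

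Mest, the mesoderm-specific transcript, encodes an enzyme of the alpha/beta hydrolase fold and is linked to the growth of fat tissue. Mest (ENSMUSG00000051855, chr6:30723547-30748465) had 612 CPM in WT day 25, 1237 in KO day 25, 115 in WT day 35 and 276 in KO day 35. KO was above WT on both days, and day 35 was far below day 25 in both lines. KO exceeded WT by a log2 ratio of 1.02 on day 25 (1.0004 to 1.03) and of 1.26 on day 35 (1.21 to 1.32), or 1.04 above the median of all genes. The day 25 value lies at the 2-fold threshold and fell just under it, to between 0.940 and 0.998, under 4 other ways of processing. With barcodes of at least 1000 genes and at most 5% mitochondrially encoded UMIs, the day 35 ratio was 1.94.

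Within gates Mest was higher in KO in 6 of 6 gates on both days, with medians of 0.83 (range 0.24 to 1.502) and 1.55 (0.09 to 2.98). The highest of these, keratinocyte at day 35, rests on 1 UMI in WT and 25 in KO. It was 1.08 with at least 4 of 8 markers required. The myogenic progenitor gate had the highest level in both lines, at 1461 CPM in WT day 25, 2920 in KO day 25, 619 in WT day 35 and 2707 in KO day 35. Its log2 ratio was 0.999 (0.96 to 1.04) and 2.13 (1.98 to 2.27). The fibroblast gate followed at 1041, 1747, 135 and 418 CPM, with ratios of 0.75 and 1.64. In the astrocyte gate at day 35 the ratio was 0.09 with an interval from -0.66 to 0.93, and it was -0.04 as the mean of each barcode's own CPM and -0.06 with median-of-ratios scaling. In the keratinocyte gate at day 25 it was 0.24 (-0.07 to 0.54), and -0.01 without the barcodes of highest UMI count. The exception among all gates was the Schwann or satellite glia gate at day 25, outside the 6, where Mest was lower in KO, at 678 CPM in WT and 422 in KO (log2 -0.68, -0.86 to -0.50).

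The neighbours of Mest did not follow it. Copg2, a coat protein gene that overlaps the end of Mest by 912 bases on the opposite strand, had 37.1, 31.5, 30.5 and 35.2 CPM, with log2 ratios of -0.23 and 0.20. Whether the authors' counting used strand is not given in the sources used here, so reads from the overlap of Mest and Copg2 cannot be assigned with certainty. Klf14, a maternally expressed zinc finger gene beyond Copg2, had 356 UMIs in WT day 25, 74 in KO day 25, 61 in WT day 35 and 2 in KO day 35. Its log2 ratio was -2.48 (-2.86 to -2.11) and -5.24 (-8.32 to -3.33). For every 100 UMIs of Mest there were 0.797, 0.0708, 1.71 and 0.0189 UMIs of Klf14. Mest and Klf14 thus moved apart in KO on both days, as Peg3 and Zim1 did.

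**Figure D2:**
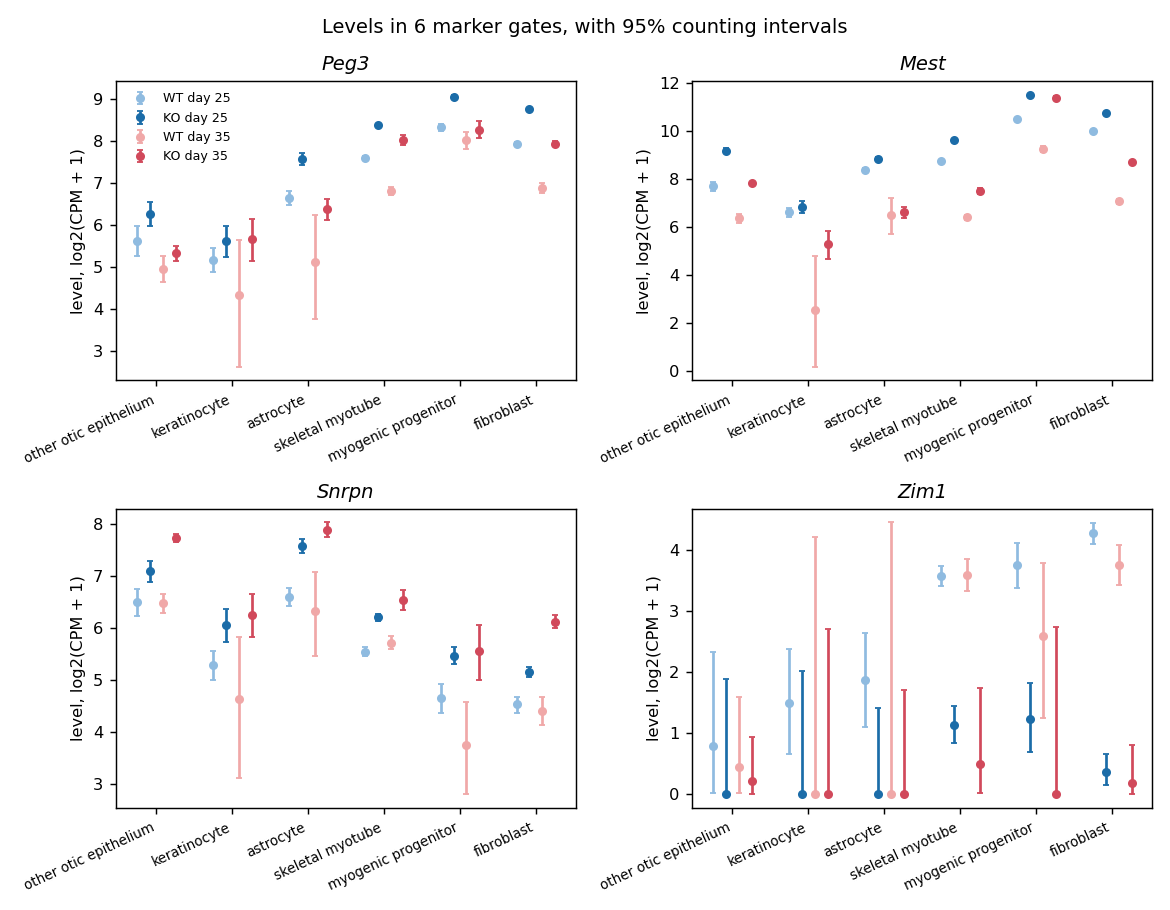
Levels of Peg3, Mest, Snrpn and Zim1, as log2(CPM + 1) on axes of different range, in the 6 gates with at least 20 barcodes in every library. Points are the summed UMIs of 1 gate in 1 library and bars 95% counting intervals; WT is pale and KO dark, day 25 blue and day 35 red. KO lies above WT in every gate for Peg3, Mest and Snrpn, and below WT for Zim1 in the skeletal myotube, myogenic progenitor and fibroblast gates.

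Snrpn encodes SmN, a protein of the splicing machinery that is most abundant in brain, and belongs to the imprinted domain known from Prader-Willi syndrome. Snrpn (ENSMUSG00000102252, chr7:59982495-60140219) had 63.8 CPM in WT day 25, 85.6 in KO day 25, 53.2 in WT day 35 and 257 in KO day 35. The KO day 35 library stood above the other 3. The log2 ratio was thus small on day 25, 0.42 (0.37 to 0.48), and large on day 35, 2.28 (2.20 to 2.35), which is 2.05 above the median of all genes. Snurf, which overlaps Snrpn, is listed with 0 UMIs in every library, so how reads were divided between Snurf and Snrpn is uncertain.

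Of the Snrpn UMIs of KO day 35, 51.4% came from the 315 barcodes of the pluripotent gate. Snrpn had 998 CPM there (971 to 1026), and 300 of the 315 barcodes held a UMI of it at a median depth of 14020 UMIs. In the fibroblast gate of that library 384 of 1569 barcodes held one at a median depth of 4313. Without the pluripotent gate the day 35 log2 ratio of Snrpn was 1.44. Whether free RNA from the pluripotent barcodes raised Snrpn in the other gates of KO day 35 was not tested. Leaving out the gate would not remove such RNA.

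Within the 6 gates Snrpn was higher in KO in 6 of 6 on both days. The median log2 ratio was 0.73 (range 0.60 to 0.99) at day 25 and 1.61 (0.83 to 1.88) at day 35, and each interval lay above 0. At day 35 the WT side held just 5 Snrpn UMIs in keratinocyte, 14 in astrocyte and 10 in myogenic progenitor. It held 108 in fibroblast, 243 in other otic epithelium and 472 in skeletal myotube. In the other otic epithelium gate Snrpn had 89.6, 135, 88.2 and 212 CPM, in the astrocyte gate 96.0, 191, 79.5 and 236, and in the fibroblast gate 22.2, 34.8, 20.3 and 68.7. Day 35 exceeded day 25 for Snrpn in KO in these 3 gates and in the skeletal myotube gate, with intervals above 0. The KO interval included 0 in the keratinocyte gate (log2 0.20, -0.34 to 0.73) and in the myogenic progenitor gate (0.09, -0.50 to 0.64). In WT the interval between days included 0 in 4 of the 6 gates, while Snrpn was slightly higher at day 35 in skeletal myotube (0.18, 0.02 to 0.33) and lower in myogenic progenitor, at 24.1 and 12.5 CPM (-0.94, -2.05 to -0.005). The neuron gate held the highest Snrpn level of day 25, at 497 CPM in WT and 1122 in KO (log2 ratio 1.17, 1.08 to 1.27). In WT the astrocyte and other otic epithelium gates followed, with overlapping intervals. In KO the oligodendrocyte lineage gate, with 24 barcodes, came second at 426 CPM (337 to 531), before astrocyte and other otic epithelium.

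Ndn, which encodes necdin, a MAGE family protein of post-mitotic neurons, lies in the same domain 2206350 bases away. Ndn (ENSMUSG00000033585, chr7:62346569-62350262) had 200 CPM in WT day 25, 247 in KO day 25, 66.4 in WT day 35 and 103 in KO day 35. Its log2 ratio was 0.30 (0.27 to 0.33) and 0.63 (0.55 to 0.71). Both were smaller than a 2-fold difference, and the second was 0.40 above the median of all genes. In gates Ndn was higher in KO in 4 of 6 at day 25 and in each of the 5 that could be measured at day 35, where the ratios ran from 0.43 to 0.86 and 4 of the 5 intervals lay above 0. In the other otic epithelium gate the day 35 ratio was 0.43 (-0.09 to 0.97), and it turned to -0.06 with at most 1 marker of any other gate. The neuron gate had its highest day 25 level, at 783 CPM in WT and 1127 in KO, and the fibroblast gate the second highest, at 331 and 368.

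Snrpn and Ndn did not keep their ratio. For every 100 UMIs of Snrpn there were 314, 289, 125 and 39.9 UMIs of Ndn. The KO day 35 value includes the pluripotent gate, where Ndn had 18.1 CPM (14.6 to 22.2). Magel2, the MAGE family gene next to Ndn, had 347, 558, 6 and 26 UMIs, with a log2 ratio of 0.48 (0.28 to 0.67) at day 25. At day 35 its counts were under the minimum of 50 UMIs.

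**Figure D3:**
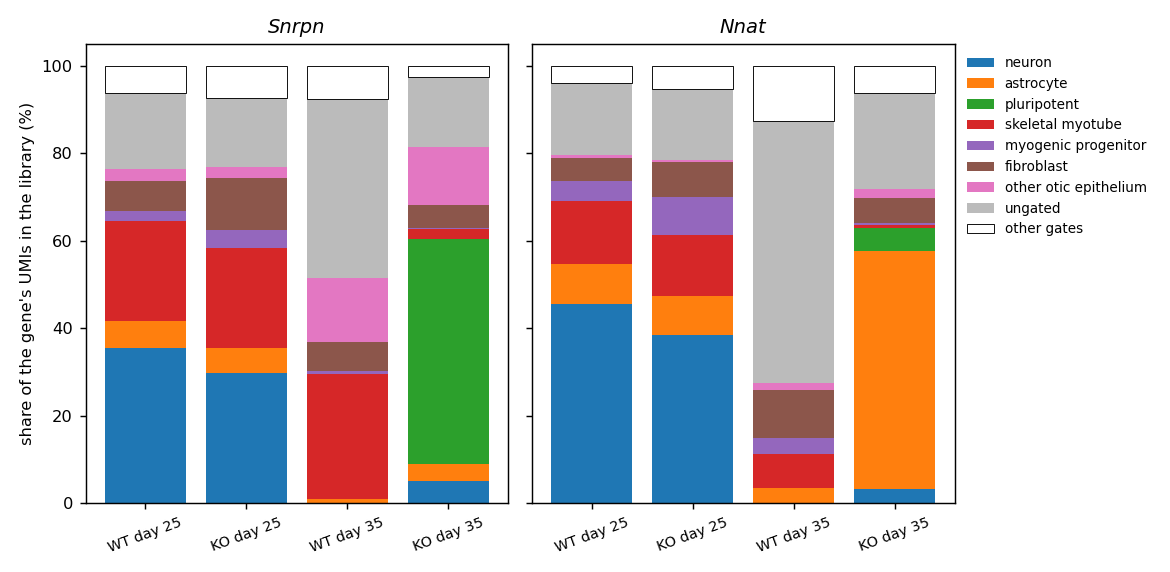
Share of the Snrpn (left) and Nnat (right) UMIs of each library that came from each gate, in percent; each bar is 1 library, and other gates include those with under 20 barcodes. The pluripotent gate (green) holds 51.4% of the Snrpn UMIs of KO day 35, and the astrocyte gate (orange) holds 54.4% of its Nnat UMIs.

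Nnat encodes neuronatin, a small membrane proteolipid of developing brain and endocrine cells, and lies within Blcap on the opposite strand. Nnat (ENSMUSG00000067786, chr2:157560078-157562522) had 390 CPM in WT day 25, 349 in KO day 25, 22.6 in WT day 35 and 108 in KO day 35. The lines were close at day 25 and far apart at day 35. On the log2 scale the ratio went from -0.16 on day 25 (-0.18 to -0.14) to 2.26 on day 35 (2.14 to 2.38), or 2.03 above the median of all genes.

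The neural gates held much of the Nnat signal. At day 25 the neuron gate gave 45.6% of all Nnat UMIs in WT and 38.5% in KO, with levels of 3908 and 5945 CPM. At day 35 the astrocyte gate gave 54.4% in KO and 3.4% in WT, where it held 33 barcodes. Without the pluripotent, neuron, astrocyte and oligodendrocyte lineage gates the Nnat ratio at day 35 was 1.02. Within gates Nnat was mixed at day 25, higher in KO in 3 of 6 and lower in 3, with ratios from -0.74 to 0.45. At day 35 it was higher in 4 of 5, among them the astrocyte gate at 136 CPM in WT and 1376 in KO (log2 3.34, 2.76 to 3.98). Of the 33 WT barcodes there, 17 held just 3 markers, and the median was 3 markers in WT and 5 in KO. In that gate 18.8% of 8231 genes were at least 2-fold higher in KO, so the barcodes compared may differ in kind. In the myogenic progenitor gate the Nnat ratio was -0.82 with an interval from -1.94 to 0.22.

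Blcap (ENSMUSG00000067787, chr2:157556362-157571274), named for its reduced expression in bladder cancer, had 19.6, 23.9, 20.2 and 29.9 CPM. Its log2 ratio was 0.28 (0.18 to 0.38) and 0.57 (0.43 to 0.71), and it was the gene of the set that differed least between days in WT, at 0.04 (-0.10 to 0.18). In gates it was higher in KO in 6 of 6 at day 25 and in 4 of 5 at day 35. For every 100 UMIs of Blcap there were 1989, 1463, 112 and 361 UMIs of Nnat, so the balance of the pair moved far more between days than between lines at day 25.

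Peg10, a gene derived from a retrotransposon and needed for the placenta, and Sgce, which encodes epsilon-sarcoglycan of the dystrophin complex, start 99 bases apart in opposite directions. Peg10 (ENSMUSG00000092035, chr6:4747306-4760517) had 68.8, 67.1, 33.9 and 23.9 CPM. KO over WT gave log2 ratios of -0.03 (-0.09 to 0.02) and -0.51 (-0.63 to -0.38), or 0.73 below the median of all genes at day 35. Sgce (ENSMUSG00000004631, chr6:4674350-4747207) had 109, 127, 121 and 113 CPM, with ratios of 0.23 (0.19 to 0.27) and -0.11 (-0.17 to -0.04).

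Peg10 and Sgce were mixed over the gates. Peg10 was higher in KO in 3 and lower in 3 of 6 gates at day 25, and higher in 3 and lower in 2 of 5 at day 35. In the fibroblast gate Peg10 was lower in KO on both days, at 69.7 and 60.0 CPM at day 25 and 39.8 and 20.5 at day 35. In the skeletal myotube gate it was 90.0, 86.5, 48.9 and 53.0 CPM, with both intervals including 0. Sgce in the fibroblast gate was 153, 172, 207 and 185 CPM. The count of Peg10 for every 100 UMIs of Sgce fell from day 25 to day 35 in both lines, from 63.3 to 27.9 in WT and from 52.7 to 21.2 in KO.

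**Figure D4:**
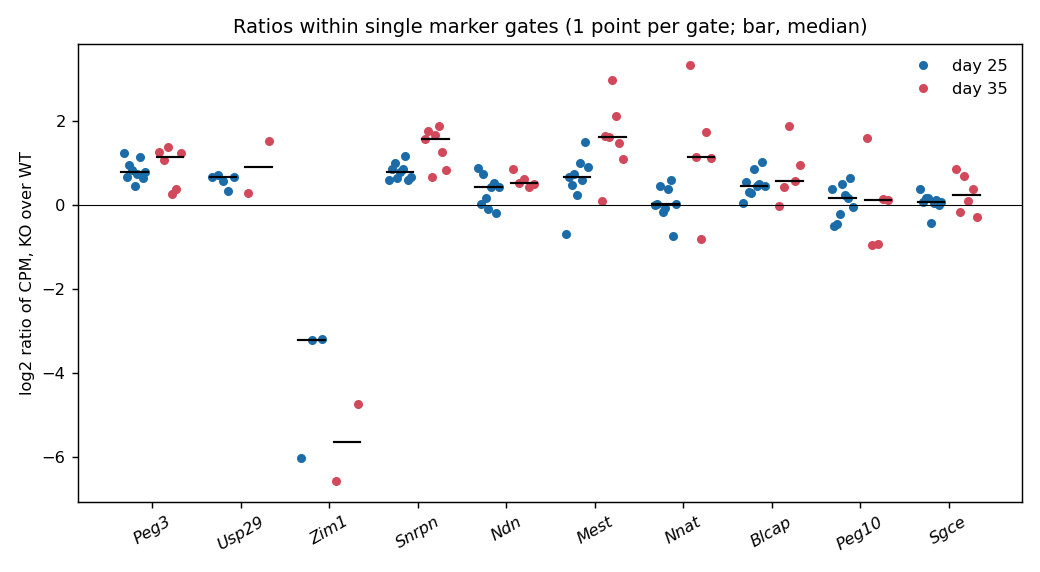
Log2 ratio of CPM, KO over WT, within single gates for each gene; 1 point is 1 gate with at least 20 barcodes in both libraries and at least 20 UMIs, and the black bar is the median over gates. Peg3, Usp29 and Snrpn lie above 0 in every gate on both days and Zim1 lies below 0, while Peg10 and Sgce scatter about 0.

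From day 25 to day 35 the genes were mostly lower in both lines. In WT 5 of the 10 were at least 2-fold lower at day 35, against 13.1% of 14922 genes, and none was at least 2-fold higher, against 6.96%. In KO 7 were at least 2-fold lower, against 7.28% of 15320 genes, and 1 was higher, Snrpn, against 11.3%. The median of all genes was -0.14 in WT and 0.14 in KO, and that of the 10 genes was -1.01 and -1.45. Nnat had the log2 ratio farthest from 0 in WT, at -4.11 (-4.22 to -4.00), and -1.69 in KO. Mest was at -2.41 in WT and -2.16 in KO, Ndn at -1.59 and -1.27, and Usp29 at -1.40 and -1.71. Peg3 lay just above the threshold in WT, at -0.999, and below it in KO, at -1.42. Peg10 lay just below it in WT, at -1.02. Snrpn was -0.26 in WT and 1.59 in KO. The KO value fell to 0.75 without the pluripotent gate and 0.84 without the barcodes of highest UMI count. It was 0.92 as the mean of each barcode's own CPM. Within gates of WT, Mest and Nnat were at least 2-fold lower in 7 of 7, and Peg3 and Ndn in 3 of 7. Peg10 was in 1 of 6, Usp29 in 1 of 4 and Zim1 in 1 of 3. In KO the gate counts were 8 of 10 for Mest, 7 of 10 for Nnat and 4 of 10 for Ndn. They were 3 of 10 for Peg3, 3 of 9 for Peg10, 4 of 5 for Usp29 and 1 of 1 for Zim1. The share of all genes past 2-fold within a gate was not computed between days, so these gate counts are a description without a background. The median log2 ratio of all genes within a gate ran from -0.16 to 0.10 in WT and from -0.10 to 0.17 in KO. Of the other paternally expressed genes in whole libraries, 9 of 17 in WT and 8 of 16 in KO were at least 2-fold lower.

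The other imprinted genes gave a mixed picture. Of 17 other paternally expressed genes measured at day 25, 0 were at least 2-fold higher in KO and 1 was lower, Igf2, while at day 35 1 of 14 was higher and 2 were lower. Of the maternally expressed genes, 1 of 20 was higher and 6 were lower at day 25, and 3 of 19 were higher and 5 lower at day 35. Of the genes that neighbour the 5 loci, 0 of 18 were higher and 1 was lower at day 25, and 1 of 15 was higher and 1 lower at day 35. Over all genes, 1.89% were at least 2-fold higher and 3.68% lower at day 25, and 7.82% higher and 2.41% lower at day 35. The neighbour list shares genes with the other lists, among them Klf14, Copg2 and Ube3a with the maternal list, so a gene can be counted in several lists. The medians of the paternal, maternal and neighbour lists stood at 0.05, -0.19 and 0.03 on day 25 and at 0.18, 0.06 and 0.09 on day 35, the day 35 medians being below that of all genes (0.23).

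Igf2, H19, Cdkn1c, Grb10, Igf2r and Klf14 are named because they were at least 2-fold apart in the same direction on both days. Igf2, a paternally expressed growth factor, had 851, 167, 348 and 34.7 CPM, with log2 ratios of -2.35 and -3.32. H19, the maternally expressed noncoding RNA beside Igf2, went the other way, at 938, 3991, 298 and 1146 CPM (2.09 and 1.94). Cdkn1c, a maternally expressed inhibitor of the cell cycle, was at -3.78 and -2.67. Grb10, an adaptor of insulin signalling that is maternally expressed outside the brain, was at -4.75 and -3.66. Igf2r, the maternally expressed receptor that clears Igf2, was at -1.26 and -1.79, and Klf14 is given above. H19 was therefore the maternally expressed gene of this group that was higher in KO, while Cdkn1c, Grb10, Igf2r, Klf14 and Zim1 were lower. Among the most abundant genes of the neighbour list, Ube3a and Manbal had ratios between -0.21 and 0.04 on both days.

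**Figure D5:**
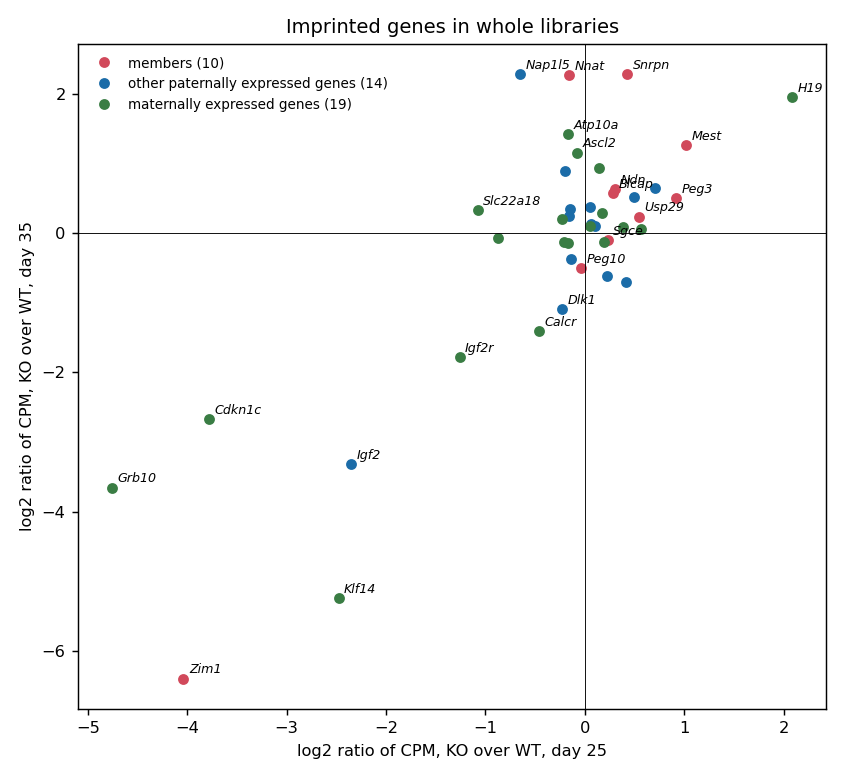
Log2 ratio of CPM, KO over WT, at day 25 (horizontal) against day 35 (vertical) in whole libraries for the 10 genes (red), 14 other paternally expressed genes (blue) and 19 maternally expressed genes (green); the 10 genes and every gene at least 2-fold apart on either day are labelled, and Zim1 is drawn with the 10. Zim1, Klf14, Grb10, Cdkn1c, Igf2 and Igf2r lie at the lower left, and H19 and Mest at the upper right.

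Over 41 units, each a gate in 1 library, the likeness of patterns was measured by Pearson's r of log2(CPM + 10). The units share libraries and depth, so r is a description. The genes most like Peg3 were Meg3 (0.86), Mirg (0.83) and AW551984 (0.81), and those most like Zim1 were Igf2 (0.81), Iyd (0.77) and Klf14 (0.77). Zim1 had at most 18.4 CPM in a unit, the fibroblast gate of WT day 25, and 0 UMIs in several units. Against the 10 CPM added, its r rests on low counts. Mest was most like BC034090 (0.79), Capn6 (0.79) and Dlk1 (0.78). Snrpn was most like Gabarapl2 (0.85), Lrp11 (0.85) and Ccdc92 (0.83), and Nnat most like Nsg2 (0.85), Rtn1 (0.83) and Clip3 (0.83). Among the 10 genes themselves the pair with the highest r was Ndn and Nnat (0.80), then Peg3 and Mest (0.73) and Peg3 and Usp29 (0.68), and the lowest was Zim1 and Snrpn (-0.43).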

How the data were processed

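Dissociated mouse inner ear organoids of 4 groups were profiled with the v2 kit of 10x Genomics, per the labels, with 1 library per group. The authors deposited UMI counts per gene and barcode as whole numbers without normalization. The tools were R 3.5.1, Seurat 2.3.1, bcl2fastq and Cell Ranger 2.1.0, with GRCm38 and mm10 as builds, per the submitters' processing notes, which give no role or order. The use of strand in counting is not given in the sources used here. Samples were grouped by the genotype and day in their labels.

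Barcodes were kept with at least 500 genes and with mitochondrially encoded genes at 10% of UMIs or less. UMIs were summed per library, or per gate and library, and divided by all UMIs of that unit to give CPM. Gates used 17 lists of 8 markers, and gates with at least 20 barcodes in a library were used. Whole-library ratios needed 50 UMIs over both libraries and gate ratios 20. Levels have exact Poisson, ratios exact conditional binomial and shares Clopper-Pearson intervals at the 95% level, and a count of 0 was set to 3 counts per library or gate in a ratio. PCR duplicates were collapsed by UMI, and the intervals cover counting error only. The intervals were tried on simulated Poisson counts, the model they assume, so that trial cannot show how they fare with spread between cells or libraries. A gene was called when it was at least 2-fold apart, and the same threshold over all measured genes gave the background. Doublets were not removed, and removal of the highest UMI counts at 0.8% per 1000 barcodes was an alternative.

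Gene positions came from GENCODE vM21 for 27645 of 27998 genes, and promoter windows from RefSeq on GRCm38.p6. Besides the 10 genes, those of 3 lists (other paternally expressed, maternally expressed and neighbouring genes) were named when at least 2-fold apart in the same direction on both days, when among the 2 most abundant of their list, or when next to a member of the set. The 3 genes of highest likeness were named for 5 genes. The genes, lists, markers and rules were chosen with earlier results of these data known. Python 3.11.15, numpy 2.4.6, scipy 1.17.1, pandas 2.3.3 and matplotlib 3.10.9 were used.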

Additional observations from a re-analysis of the deposited data

Results flagged for a closer look

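Some ratios of KO over WT had opposite directions on the 2 days. With 1 library per group the difference between the days was not tested. In whole libraries Nnat had a log2 ratio of -0.160 at day 25 and 2.26 at day 35. Sgce had 0.228 and -0.108, both small against a 2-fold difference. In the other otic epithelium gate Nnat had -0.740 and 1.73, from 199 WT and 117 KO UMIs on day 25 and 12 WT and 89 KO UMIs on day 35. With at most 1 marker of any other gate allowed, the day 35 value of Nnat was 0.13 and no day 25 value was obtained, and without the barcodes of highest UMI count the day 35 value was 1.04. In the fibroblast gate Nnat had -0.166 and 1.15. In the myogenic progenitor gate Peg10 had 0.232 and -0.918. In the fibroblast gate Sgce had 0.165 and -0.159.

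The neural gates moved with the Nnat ratio. Neuron barcodes numbered 545 (WT) and 276 (KO) on day 25, then 3 and 25 on day 35. The astrocyte gate held 33 barcodes in WT and 281 in KO at day 35. Free RNA from such cells in the other gates was not tested.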

How the results depend on the processing

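No ratio of the 10 genes that was at least 2-fold in a whole library turned its direction under any alternative tried. The count of genes at least 2-fold apart at day 25 was 2, and 1 with barcodes of at least 1000 genes and at most 5% mitochondrially encoded UMIs, with the mean of each barcode's own CPM, without the barcodes of highest UMI count and without the pluripotent, neuron, astrocyte and oligodendrocyte lineage gates, since Mest lay at the threshold. The counts at day 35 and between days stayed within 1.5 times. Pairs of gene and gate at least 2-fold apart numbered 8 at day 25, 15 without the barcodes of highest UMI count and 36 at 1.5-fold. At day 35 they numbered 24, and 15 with at most 1 marker of any other gate. Fewer pairs could be measured in that setting, so 24 and 15 do not come from the same set of pairs. Of the 30 genes of highest likeness, 18 were the same with log2(CPM + 1). The ratio of Snrpn at day 35 ranged from 1.26 to 2.44 and that of Nnat from 1.02 to 2.52. Leaving out the 4 gates and requiring at most 1 marker of another gate were chosen after seeing the data. Small ratios changed sign for Sgce at day 35 (-0.33 to 0.07), Snrpn between days in WT (-0.43 to 0.36), Blcap between days in WT (-0.07 to 0.25) and Sgce between days in KO (-0.32 to 0.01). Of 40 thinned shares of barcodes, 39 moved without thinning. No paired analysis was possible because each group had 1 library. Depth limits Zim1 and Klf14 in KO at day 35, with 3 and 2 UMIs.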

Other observations

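Dlk1 and Meg3, the genes of the paternal and maternal lists with the most UMIs summed over the 4 libraries, lie in 1 imprinted domain, in which Dlk1, a membrane protein of the Notch family, is paternally and the noncoding Meg3 maternally expressed. Dlk1 had 2206 CPM in WT day 25, 1884 in KO day 25, 482 in WT day 35 and 226 in KO day 35, and Meg3 had 3611, 4119, 851 and 777. KO over WT, the log2 ratios were -0.23 and -1.09 for Dlk1 and 0.19 and -0.13 for Meg3. In KO day 35 alone H19, at 1146 CPM, was above Meg3. Both Dlk1 and Meg3 were lower at day 35 than at day 25 in both lines.

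Airn and Nap1l5 were chosen after their values were seen. Airn, the paternally expressed noncoding RNA that overlaps Igf2r, had 17.7, 28.7, 12.8 and 20.02 CPM, with log2 ratios of 0.70 (0.60 to 0.80) and 0.65 (0.47 to 0.83), while Igf2r was lower in KO on both days. In gates Airn was higher in KO in 9 of 9 at day 25, with 4 intervals above 0. At day 35 it was higher in 4 of 5, with 2 intervals above 0. Reads of Airn and Igf2r cannot be told apart where the genes overlap, since the use of strand is not given in the sources used here. Nap1l5, a paternally expressed gene of brain, had 46.6, 29.7, 5.54 and 26.8 CPM, with ratios of -0.65 and 2.28, so that its order over the 4 libraries was that of Nnat.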
